A study of Mus musculus with 6 samples.

Results

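Glycogen is the branched glucose polymer that cells hold as a reserve, and the corneal epithelium is known for storing it and for drawing on it during wound repair. Its synthesis runs from UDP-glucose, made by UDP-glucose pyrophosphorylase (Ugp2), through a short primer that glycogenin (Gyg) builds on itself, to chain growth by glycogen synthase (Gys1) and branching by the branching enzyme (Gbe1). Targeting subunits of protein phosphatase 1 such as Ppp1r3c bring the phosphatase to the particle, where it activates the synthase and inactivates phosphorylase. Glycogen phosphorylase, in the forms named for liver (Pygl), brain (Pygb) and muscle (Pygm), releases glucose 1-phosphate from the chains, and laforin (Epm2a) removes phosphate from glycogen.

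These 9 genes were chosen by name from 55421 in the count files, and all 9 were found and had counts high enough to be tested. RNA was sequenced from corneas of mice heterozygous for a mutation of Pax6, the transcription factor whose loss of one copy causes aniridia, and from wildtype corneas, with 3 libraries of each genotype and all mice aged 20 weeks. The labels name neither the mutant allele, the strain, the sex nor whether a library came from 1 animal, and the series design calls the libraries biological replicates. If they came from shared tissue, the spread between them is technical. The choice of genes was made with differences between mutant and wildtype already known, among them those of Gyg and Ppp1r3c, so the values of the 9 genes in this contrast are a description and carry no p-value. Levels are CPM, counts scaled to a common library size with TMM factors, and differences are log2 fold changes, mutant minus wildtype, with the SE of the edgeR fit.

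The libraries held 16858005 to 21846406 gene counts. Corneal epithelial markers marked the tissue in every library. The keratin Krt12, which defines that epithelium, averaged 5237 ± 1673 CPM in mutant and 18455 ± 3233 CPM in wildtype libraries (SD, n = 3 each). At an adjusted p under 0.05, mutant corneas had 5.59% of the 15209 tested genes higher and 4.46% lower. Mutant replicate 1 had 18628 Xist counts and 0 from Y-linked genes. The other 5 libraries had at most 12 Xist counts and at least 2316 Y-linked counts. By these counts mutant replicate 1 was female and the other 5 libraries male, so the sexes were not balanced between genotypes. Wildtype replicate 3 stood apart in markers of retina and pigment cells, at 737 summed CPM against 8.001 to 56.3 CPM in the other 5 libraries, and of skeletal muscle, at 171 CPM against 0.170 to 10.1 CPM.

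Among the 9 genes, 3 were past that threshold, all of them lower in mutant corneas, and 6 were not. Against 4.46% of all tested genes this is 3 of 9, but nothing can be read from it, since the contrast was in view when the genes were chosen. The 3 lay at separate points of the pathway: Gyg at priming, Ppp1r3c at the activation of the synthase and Pygl at breakdown. The synthesis enzymes Ugp2, Gys1 and Gbe1, and the brain form of phosphorylase, Pygb, had log2 fold changes between -0.05 and 0.32.

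Gyg and Ppp1r3c are also the members whose RefSeq promoter windows hold the palindrome CACGTG, the E-box letters that many basic helix-loop-helix factors bind. The 9 genes had 10 windows in the RefSeq table (GRCm38.p6), each of 300 bases around an annotated start. The 30 bases around each match are shown because these genes had the largest differences of the 9, and capitals mark the motif. Both run 5′ to 3′ on the gene's own strand, which is the minus strand.
Gyg, chr3:20155091-20155120: agcctgcgcggcCACGTGacggccgctata
Ppp1r3c, chr19:36736691-36736720: gagggaccggttCACGTGatctggctttga
The first base of the motif lay at position 9 counted from the RefSeq start of Gyg and at position -104 from that of Ppp1r3c. Of all 32851 windows in the table, 7.15% held CACGTG, and 2 of the 9 genes did. TTCACGC, letters from the core of the published Pax6 paired-domain consensus, was in none of the 10 windows and in 1.26% of all windows. TATAAA was in none of the 10 and in 13.6% of all. Both strands were searched for each motif, and none of the 3 motifs is part of another. A match here is a run of letters, not a measured binding site, and a missing match says only that these letters are not in the window.

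A longer stretch is given for Ppp1r3c and for Pygl, the third gene with a large difference, again 5′ to 3′ on the minus strand. That of Ppp1r3c lies before its GENCODE start at 36736653. That of Pygl lies before its RefSeq start at 70227683, which is also a start of a GENCODE coding transcript, while another coding transcript of Pygl starts further upstream, at 70231488, and spans the stretch. Capitals mark CACGTG in Ppp1r3c, and the Pygl stretch has none.
Ppp1r3c, chr19:36736654-36736854: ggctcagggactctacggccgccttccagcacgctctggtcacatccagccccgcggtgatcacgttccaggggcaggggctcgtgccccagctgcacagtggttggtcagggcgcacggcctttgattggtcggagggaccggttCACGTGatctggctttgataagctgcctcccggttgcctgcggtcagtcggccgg
Pygl, chr12:70227684-70227933: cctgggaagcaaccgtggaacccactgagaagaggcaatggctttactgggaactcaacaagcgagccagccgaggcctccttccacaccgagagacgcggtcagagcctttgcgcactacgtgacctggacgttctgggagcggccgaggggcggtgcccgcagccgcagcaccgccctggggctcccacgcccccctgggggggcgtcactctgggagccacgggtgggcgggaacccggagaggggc

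Synthesis begins with UDP-glucose, and Ugp2, which makes it, was at a similar level in both genotypes. Ugp2 (ENSMUSG00000001891; chromosome 11, 21321138 to 21371201, minus strand) stood at 22.2, 19.0 and 23.0 CPM in mutant libraries and at 23.7, 18.1 and 16.7 CPM in wildtype libraries. The ranges overlapped, and the log2 fold change was 0.13 ± 0.19. An annotated transcript on the opposite strand, Gm12043, overlaps 78 bases of its exons, so some of its counts could belong there.

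Gyg encodes glycogenin, the self-glucosylating protein from which each glycogen particle grows. Gyg (ENSMUSG00000019528; chromosome 3, 20122084 to 20155317, minus strand) had 408, 486 and 450 counts in mutant libraries and 2891, 3170 and 3395 in wildtype libraries. Scaled, this was 24.97, 27.0 and 20.3 CPM in mutant and 164, 180 and 182 CPM in wildtype corneas. Every mutant library lay far below every wildtype library, and the libraries of a genotype differed little from each other. Such a separation, with all mutant libraries lower, was seen in 14.7% of all tested genes. The level in mutant corneas was 7.28-fold lower (log2 fold change -2.86 ± 0.14), which ranked 106 from the lowest of the 15209 genes.

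Gys1, the glycogen synthase of most tissues outside the liver, and Gbe1, which adds the branches, were low and close in both genotypes. Gys1 (ENSMUSG00000003865; chromosome 7, 45434844 to 45456619, plus strand) was at 13.8, 11.4 and 9.72 CPM in mutant libraries and at 10.5, 7.61 and 9.89 CPM in wildtype libraries. Its log2 fold change was 0.32 ± 0.24 and its ranges overlapped. The opposite-strand gene Ruvbl2 shares 310 bases with its exons, which makes its counts uncertain. Gbe1 (ENSMUSG00000022707; chromosome 16, 70313949 to 70569716, plus strand) was at 10.6, 9.49 and 11.1 CPM in mutant libraries and at 7.26, 9.37 and 9.31 CPM in wildtype libraries. The mutant libraries of Gbe1 all lay above the wildtype ones, by a narrow margin, as 17.1% of all tested genes did, and its log2 fold change of 0.27 ± 0.23 was not past the threshold. The liver synthase Gys2 had 0 to 2 counts in any library, so Gys1 was the synthase detected at this depth.

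Ppp1r3c encodes the subunit also called protein targeting to glycogen, which holds protein phosphatase 1 on the particle together with synthase and phosphorylase. Ppp1r3c (ENSMUSG00000067279; chromosome 19, 36731731 to 36736653, minus strand) had 134, 200 and 89 counts in mutant libraries and 2482, 2682 and 2462 in wildtype libraries. The levels were 8.20, 11.1 and 4.01 CPM in mutant and 141, 152 and 132 CPM in wildtype corneas. The highest mutant library stayed far below the lowest wildtype library, while the mutant libraries differed among themselves more than the wildtype ones relative to their level. At 18.3-fold lower (log2 fold change -4.20 ± 0.34), Ppp1r3c had the largest difference of the 9 genes and ranked 17 from the lowest of all genes tested.

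**Figure D1:**
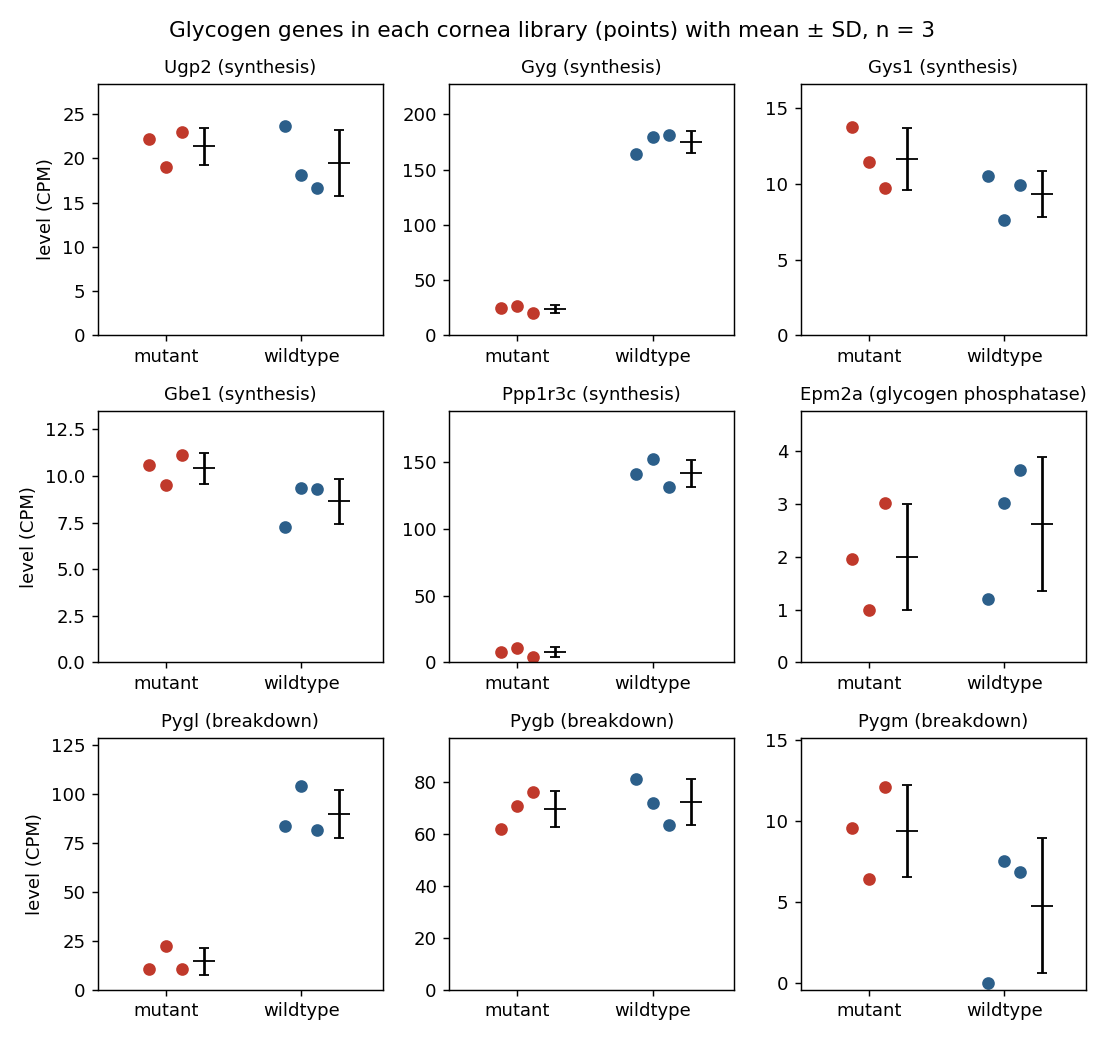
Level in CPM (linear axes, each with its own scale) of the 9 glycogen genes in each library, with the 3 mutant libraries left of the 3 wildtype libraries and bars for mean ± SD. Gyg, Ppp1r3c and Pygl separate by genotype by a wide margin, Gbe1 by a narrow one, and the libraries of the other 5 genes overlap.

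On the breakdown side, the forms of phosphorylase did not behave alike. Pygl, the form named for liver and also found in many other tissues, was at 10.5, 22.3 and 10.4 CPM in mutant libraries and at 83.4, 104 and 81.7 CPM in wildtype libraries. Its mutant libraries lay below all wildtype ones, and mutant replicate 2 stood above the other mutant libraries. The level was 6.23-fold lower in mutant corneas (log2 fold change -2.64 ± 0.31, rank 132 from the lowest). Its gene, ENSMUSG00000021069, spans 70190811 to 70231488 of chromosome 12 (minus strand).

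Pygb, the form named for brain, was at 62.0, 70.7 and 76.0 CPM in mutant libraries and at 81.2, 71.8 and 63.4 CPM in wildtype libraries. These ranges overlapped almost fully, with 69.6 ± 7.06 CPM in mutant and 72.1 ± 8.89 CPM in wildtype corneas (SD, n = 3 each) and a log2 fold change of -0.05 ± 0.14. Its gene, ENSMUSG00000033059, spans 150786735 to 150831758 of chromosome 2 (plus strand).

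Pygm, the muscle form, was the least even of the phosphorylases. Pygm (ENSMUSG00000032648; chromosome 19, 6384399 to 6398459, plus strand) was at 9.61, 6.44 and 12.1 CPM in mutant libraries and at 0, 7.55 and 6.85 CPM in wildtype libraries. Wildtype replicate 1 had no Pygm count at all, which allows up to 0.170 CPM, while the other wildtype libraries had 133 and 128 counts. The log2 fold change was 0.97 ± 1.07, and 0.38 without wildtype replicate 1. That library also held the lowest summed level of 4 smooth muscle and iris markers (Myh11, Acta2, Cnn1 and Des), 8.23 CPM, against 71.6 to 195 CPM in the other 5 libraries. Of 10 skeletal muscle markers, Ckm, Myh2 and Myl1 were at 0 in all mutant libraries, and the list summed to 3.47 to 5.63 CPM in mutant and 0.170 to 171 CPM in wildtype libraries. The part of these cells in the Pygm counts was not tested.

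Epm2a, the glycogen phosphatase whose loss in humans causes Lafora disease, was the lowest of the 9. Epm2a (ENSMUSG00000055493; chromosome 10, 11343404 to 11459644, plus strand) was at 1.96, 0.999 and 3.02 CPM in mutant libraries and at 1.19, 3.01 and 3.64 CPM in wildtype libraries. With 18 to 68 counts per library and overlapping ranges, its log2 fold change of -0.39 ± 0.61 leaves differences of either sign within the error.

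Levels of different genes can be compared only per length, here as RPKM, the CPM per kilobase of the union of annotated exons. By this measure Gyg, at 74.7 ± 4.14 RPKM, and Ppp1r3c, at 52.0 ± 3.78 RPKM, were the highest of the 9 in wildtype corneas (SD, n = 3), and their libraries did not overlap each other or the next gene. Pygb (14.999 ± 1.85 RPKM) and Pygl (13.0 ± 1.81 RPKM) followed with overlapping libraries, then Ugp2 at 6.36 ± 1.21 RPKM. Gys1, Gbe1, Pygm and Epm2a formed the low end, from 1.95 ± 0.318 to 0.795 ± 0.386 RPKM, where each overlapped its neighbour.

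The order in mutant corneas was different. Pygb was highest at 14.5 ± 1.47 RPKM, ahead of Gyg at 10.3 ± 1.47 and Ugp2 at 6.97 ± 0.682 RPKM (SD, n = 3), with no overlap between these. Pygm, Ppp1r3c, Gys1, Pygl and Gbe1 lay between 2.92 ± 0.884 and 1.94 ± 0.155 RPKM and each overlapped its neighbour, so their order was not resolved. With the longest protein-coding transcript as length, Pygl came next after Ugp2 and overlapped it. Ppp1r3c thus stood among the synthase and the branching enzyme in mutant corneas and far above them in wildtype corneas.

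Ratios within a library do not depend on its depth or scaling. Glycogenin to synthase, Gyg to Gys1 per length, was 3.70, 4.82 and 4.26 in mutant libraries and 31.9, 48.3 and 37.5 in wildtype libraries. The phosphorylases summed to 17.4, 19.9 and 21.1 RPKM in mutant libraries and to 29.0, 32.4 and 27.2 RPKM in wildtype libraries. This sum over Gys1 was 8.26 ± 2.17 in mutant and 15.6 ± 4.15 in wildtype corneas (SD, n = 3 each). The ratio of breakdown to synthase RNA thus ran from 6.05 to 10.4 in mutant libraries and from 13.1 to 20.4 in wildtype libraries, without overlap. Between the means it was 1.89-fold lower in mutant corneas, and 2.42-fold lower with the longest protein-coding transcript as length. The ratio of primer to synthase was 9.21-fold lower with either length.

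Within the phosphorylases the makeup differed by genotype. Pygl made up 8.77%, 16.2% and 7.19% of the summed level in mutant libraries and 41.7%, 46.6% and 43.6% in wildtype libraries. Pygb made up 74.1%, 73.8% and 74.96% in mutant and 58.3%, 46.1% and 48.6% in wildtype libraries. Pygb RNA itself was at a similar level in both genotypes, so its larger share in mutant corneas goes with the smaller level of Pygl. Whether Pygl or Pygb led in wildtype corneas depended on the length used. With the longest protein-coding transcript in place of all exons, an alternative added after seeing the data, Pygl held 59.7% and Pygb 37.0% there, and in mutant corneas 18.4% and 68.9%.

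**Figure D2:**
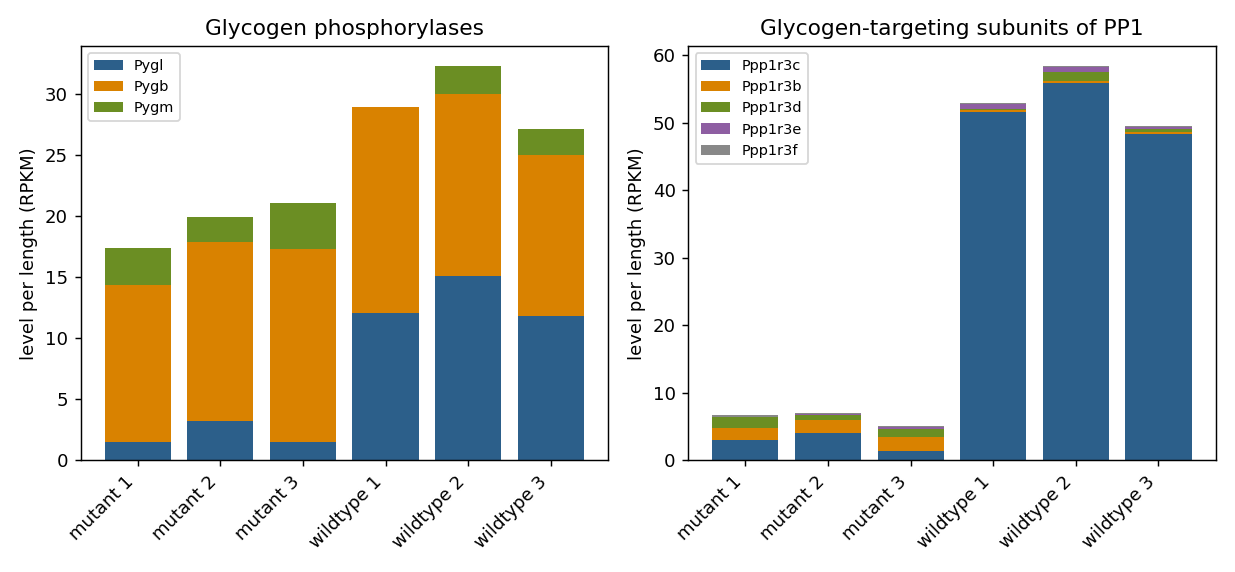
Level per length (RPKM, union of annotated exons) of the glycogen phosphorylases, left, and of the glycogen-targeting subunits of protein phosphatase 1, right, stacked for each library, mutant left of wildtype. The Pygb segment has a similar height in all 6 libraries while Pygl is small in mutant ones, and Ppp1r3c fills nearly the whole bar in wildtype libraries. Ppp1r3a and Ppp1r3g, which had at most 14 counts in a library, are not drawn.

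Of 27 further genes of the glycogen pathway, 22 had enough counts to be tested, 3 rose and none fell in mutant corneas at an adjusted p under 0.05. Over all tested genes 10.1% passed this threshold in either direction, against 13.6% of the 22, and nothing is read from this difference. DESeq2 called 4 of the pathway genes higher and 0 lower. At an unadjusted p under 0.05 in edgeR, 4 of the 22 were higher and 1 was lower, where 13% of all tested genes were higher and 10.8% lower. The median log2 fold change of the 22 was 0.13, and that of all tested genes was 0.01. Gys2, Ppp1r3a, Ppp1r3g, Phkg1 and the glucose-6-phosphatase gene G6pc had at most 14 counts in any library and were not tested. The pathway list was set with earlier results of these data known, so the adjusted p-values given below are not independent evidence.

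The largest change past the threshold was in the gene for another targeting subunit of the same phosphatase. Ppp1r3b, the subunit best known from liver, was at 11.4, 11.6 and 12.4 CPM in mutant libraries and at 1.31, 1.99 and 2.35 CPM in wildtype libraries. It rose 6.25-fold (log2 fold change 2.64 ± 0.32, quasi-likelihood test of edgeR, Benjamini-Hochberg adjusted p = 0.0022), and every mutant library lay above every wildtype one. Ppp1r3b and Ppp1r3c thus differed in opposite directions between the genotypes. Even so, the summed level of the 7 targeting subunits was 6.26 ± 1.05 RPKM in mutant and 53.8 ± 4.65 RPKM in wildtype corneas (SD, n = 3 each).

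Ppp1r3c made up 44.7%, 58.4% and 29.1% of this sum in mutant libraries and 97.6%, 95.05% and 97.5% in wildtype libraries. Ppp1r3b made up 27.3%, 26.8% and 39.4% in mutant libraries and 0.396%, 0.544% and 0.763% in wildtype libraries. Ppp1r3b was the larger of these in mutant replicate 3 and the smaller in the other mutant libraries, and without length scaling its mean share in mutant corneas was 48.3% against 30.7% for Ppp1r3c. Which of them led in mutant corneas was thus not resolved. The remaining subunits Ppp1r3d, Ppp1r3e and Ppp1r3f were at 0.184 to 5.14 CPM in every library and none passed the threshold. Their log2 fold changes were 0.91 ± 0.74, -1.92 ± 0.76 and 0.13 ± 0.61. The mutant libraries of Ppp1r3e all lay below the wildtype ones, as in 14.7% of all tested genes, and the others overlapped.

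The other genes that rose were Pgm2 and Ppp1cb. Pgm2, a member of the phosphoglucomutase family whose human counterpart acts chiefly on pentose phosphates, was at 32.6, 28.02 and 38.8 CPM in mutant libraries and at 15.5, 15.5 and 17.2 CPM in wildtype libraries. It rose 2.06-fold (quasi-likelihood test of edgeR, Benjamini-Hochberg adjusted p = 0.0078) and its groups did not overlap. Pgm1, the main enzyme that interconverts glucose 1-phosphate and glucose 6-phosphate, had overlapping ranges and a log2 fold change of 0.24 ± 0.22. Ppp1cb, a catalytic subunit of protein phosphatase 1, was at 205, 212 and 252 CPM in mutant libraries and at 158, 165 and 159 CPM in wildtype libraries. Its 1.39-fold rise had a Benjamini-Hochberg adjusted p = 0.045 (quasi-likelihood test of edgeR) and was not called in 8 of 14 alternatives. Its exons share 1908 bases with Gm43312 on the same strand, so its counts are uncertain. The other catalytic subunits, Ppp1ca and Ppp1cc, were not past the threshold.

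The steps around phosphorylase gave no call. Among them were the phosphorylase kinase subunits Phka1, Phka2, Phkb and Phkg2, the lysosomal glucosidase Gaa, the laforin partner Nhlrc1, G6pc3 and the glucose 6-phosphate transporter Slc37a4. Their log2 fold changes ran from -0.24 ± 0.34 for Slc37a4 to 0.49 ± 0.77 for Nhlrc1. The synthase kinases Gsk3a and Gsk3b were at -0.29 ± 0.14 and 0.12 ± 0.16. Stbd1, which tethers glycogen to membranes, falls outside the naming rule and was singled out after its values were seen. It was at 2.75, 4.27 and 4.32 CPM in mutant libraries and at 0, 0.397 and 0.856 CPM in wildtype libraries, with a Benjamini-Hochberg adjusted p = 0.085 (quasi-likelihood test of edgeR). Without wildtype replicate 1, its adjusted p was 0.025, and over the 14 alternatives it ran from 0.0010 to 0.25.

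**Figure D3:**
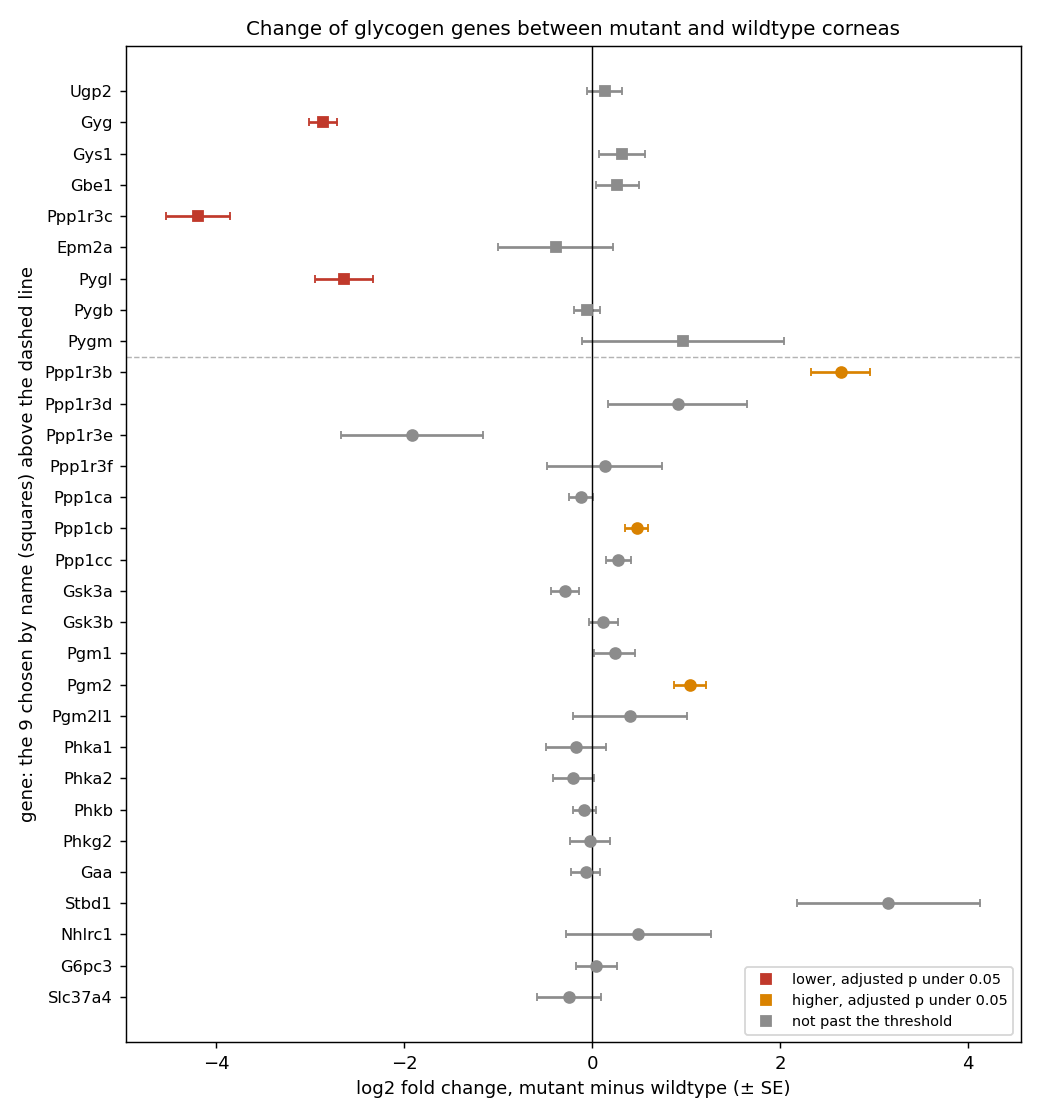
Log2 fold change, mutant minus wildtype, with its SE for the 9 genes chosen by name (squares) and for tested genes of the rest of the pathway (circles). Ppp1r3c, Gyg and Pygl stand far to the left at -4.20, -2.86 and -2.64, and Ppp1r3b far to the right at 2.64. Ppp1r3e at -1.92 and Stbd1 at 3.15 have wide errors and are not past the threshold. Most other genes lie within 0.5 of 0.

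Markers of several cell types differed between the genotypes along with these genes. The 6 corneal epithelial markers (Krt12, Krt5, Aldh3a1, Tkt, Upk1b and Slurp1) summed to 17276 to 23850 CPM in mutant and 37279 to 51062 CPM in wildtype libraries, and 4 of 6 fell. The 5 conjunctival and goblet markers summed to 6151 to 7550 CPM in mutant and 356 to 608 CPM in wildtype libraries, and all 5 rose. Of 5 keratocyte markers 3 rose, with sums of 519 to 3299 CPM in mutant and 228 to 268 CPM in wildtype libraries, and of 6 leukocyte markers 5 rose, with sums of 180 to 213 CPM in mutant and 42.4 to 66.3 CPM in wildtype libraries. None of the markers in these 4 lists was at 0 in all libraries of a genotype. Of all tested genes, 5.59% were called higher and 4.46% lower. No tested marker was called in the lists of corneal endothelium, smooth muscle and iris, lens, nerve and glia, skeletal muscle, or retina and pigment cells. The sums for corneal endothelium and for smooth muscle and iris were 2.17-fold and 2.31-fold higher in mutant corneas between the means. The marker lists were set with earlier results of these data known. In bulk tissue fewer cells of a type and less RNA per cell cannot be told apart.

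The differences of Gyg, Ppp1r3c and Pygl were larger than that of the summed corneal epithelial markers, which was 2.27-fold lower in mutant corneas. Per 1000 CPM of these markers, Gyg was at 1.25 ± 0.174 CPM in mutant and 4.04 ± 0.829 CPM in wildtype corneas (SD, n = 3 each). Ppp1r3c was at 0.390 ± 0.139 CPM in mutant and 3.23 ± 0.416 CPM in wildtype corneas on this scale, and Pygl at 0.713 ± 0.190 CPM in mutant and 2.05 ± 0.368 CPM in wildtype corneas. For all 3 the groups still did not overlap with this sum as the scale, and single markers were not tried as the scale. On the same scale Pygb was at 3.63 ± 0.693 CPM in mutant and 1.63 ± 0.0602 CPM in wildtype corneas. A gene with unchanged CPM comes out higher in mutant corneas on this scale, because the marker sum is lower there. The value of Pygb on this scale thus cannot be read as a rise, and it does not tell the level per cell. Ugp2, Gys1 and Gbe1, also not past the threshold, were 2.58-fold, 2.86-fold and 2.74-fold higher between the means. The part of cell makeup in any of these values was not tested.

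**Figure D4:**
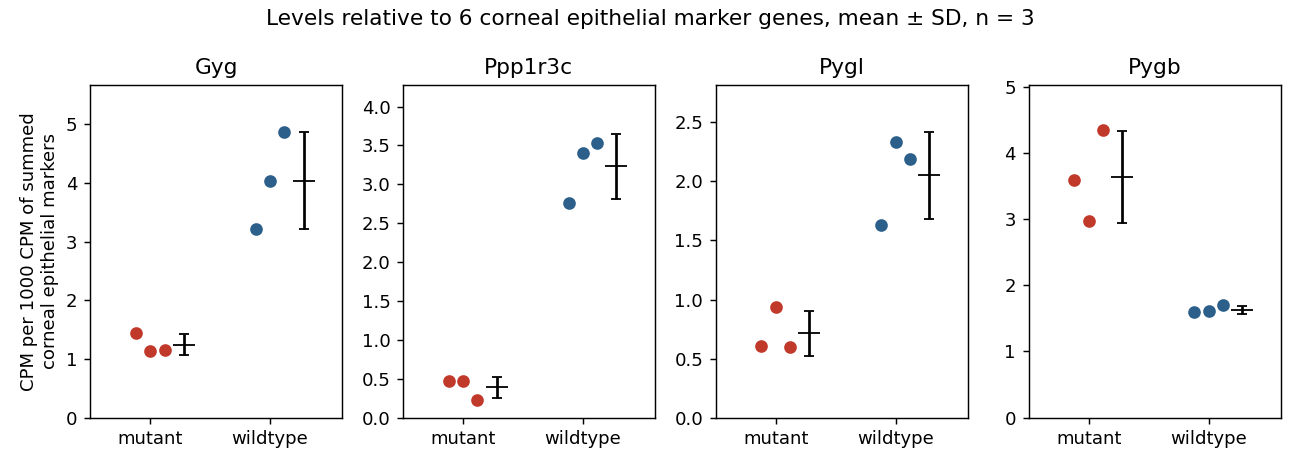
CPM of Gyg, Ppp1r3c, Pygl and Pygb per 1000 CPM of the 6 summed corneal epithelial markers, in each library with mean ± SD (n = 3), mutant left of wildtype. On this scale Gyg, Ppp1r3c and Pygl remain lower in all mutant libraries, by 3.24-fold, 8.29-fold and 2.88-fold between the means. Pygb, at a similar CPM in both genotypes, comes out 2.23-fold higher because the marker sum is lower in mutant corneas.

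Among 9714 genes with a mean of at least 5 CPM, those whose log2 CPM followed Gyg most closely over the 6 libraries were Eda, the ectodysplasin ligand, Ptprd, a receptor tyrosine phosphatase, and Atxn10, with Pearson's r of 0.9998, 0.999 and 0.996. Their log2 fold changes were -2.36, -2.33 and -0.64. For Ppp1r3c they were the serine protease gene Prss32, the scaffold gene Homer2 and transketolase (Tkt), at -1.56, -3.53 and -1.83. Tkt is also among the corneal epithelial markers summed above. The points share the split into genotypes, so r mainly reflects that split: 345 genes reached 0.95 for Gyg and 314 for Ppp1r3c.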

How the data were processed

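RNA-seq counts came from 6 cornea libraries. Per the labels' protocols, a low-input kit that keeps strand made the libraries from total RNA, and reads were paired. The submitters' processing notes list edgeR, HTSeq, HISAT2, SAMtools and Trim Galore and name GRCm38 as build, while tool versions and the strand option were not given in the sources used here. Raw counts were deposited per Ensembl gene, with no normalization by the authors. HTSeq's summary lines (16.3% in no feature, 30.1% not aligned and 3.50% not uniquely aligned of all lines) were left out. Names, exons and positions came from GENCODE M21 on the same build; 55240 of 55421 IDs matched.

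Counts were analysed with edgeR 4.0.16 in R 4.3.3: filterByExpr (minimum count 10, minimum total 15), TMM scaling, and the quasi-likelihood test with genotype as the only term and Benjamini-Hochberg adjustment at 0.05 over 15209 genes. Fitting was tested on simulated data. A count of 0 allows 3 counts; this covers counting error only. Promoter sequences are RefSeq's (GRCm38.p6).

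The 9 genes, the pathway and marker lists and the motifs were chosen with earlier results of these data known. Named are the 9 genes, pathway genes past the threshold, and for Gyg and Ppp1r3c the 3 genes with the highest correlation of log2 CPM (prior count 2) among those of at least 5 CPM. Other pathway genes are given by role, whatever their values; 1 gene of the pathway list is counted but not otherwise reported here. Targeting-subunit shares were added after seeing the data. Alternatives were RLE (with DESeq2 1.42.0 as a further tool) or no composition factors, other filters, removal of structural and mitochondrial RNA, sex as a covariate, leaving out libraries, and other gene lengths.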

Additional observations from a re-analysis of the deposited data

How the results depend on the processing

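Over 14 alternative fits, 3 of the 9 glycogen genes were past the threshold in each, all lower. Of all tested genes, 271 of 15909 (without mutant replicate 3) to 1137 of 28717 (no low-count filter) were lower. The 9 genes were chosen with the contrast in view, so their calls remain a description. Gyg, Ppp1r3c and Pygl kept direction and call, with log2 fold changes of -2.95 to -2.76, -4.55 to -3.88 and -3.09 to -2.46. Ugp2, Gys1, Gbe1, Pygm and Epm2a kept their sign and stayed outside the threshold. Pygb, close to 0, changed sign with sex as a covariate (0.024), without mutant replicate 1 and wildtype replicate 1 (0.10), and among single libraries left out (-0.16 to 0.04). Sex was inferred from Xist counts, which set only mutant replicate 1 apart. The fit with sex as a covariate thus came close to the fit without this library. Their log2 fold changes were -2.892 and -2.890 for Gyg, and -2.460 and -2.458 for Pygl. The 14 fits are therefore not all independent. Of the 19 to 27 pathway genes measured, 2 to 4 were higher in every fit. Of all tested genes, 340 of 15909 (without mutant replicate 3) to 1588 of 28717 (no low-count filter) were higher. Ppp1r3b and Pgm2 kept their calls, and Ppp1cb had adjusted p 0.022 to 0.21 by edgeR or DESeq2. Over all genes, 1588 were higher and 1137 lower without a low-count filter, 1324 higher with DESeq2, and 471 higher and 376 lower with sex as a covariate. Leaving out single libraries gave 340 (without mutant replicate 3) to 1227 (without wildtype replicate 1) higher genes, with 455 without mutant replicate 1, again 455 without mutant replicate 2, and 542 without wildtype replicate 3. It gave 271 (without mutant replicate 3) to 847 (without wildtype replicate 1) lower genes, with 380, 351 and 417 without mutant replicate 1, mutant replicate 2 and wildtype replicate 2. The cause of these shifts was not tested.

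Shares moved with the gene length used. Pygl held 17.6% in mutant and 58.5% in wildtype corneas with the longest transcript, 18.4% and 59.7% with the longest protein-coding transcript, and 53.7% in wildtype without length scaling. Pygb held 69.5% in mutant and 38.1% in wildtype with the longest transcript, 68.9% and 37.0% with the longest protein-coding one, and 43.4% in wildtype without scaling. Pygm held 10.2% in mutant corneas without scaling. Ppp1r3b held 38.6% in mutant and 0.800% in wildtype corneas with either transcript length, and 48.3% and 1.28% without scaling. Pygl's share was smaller and Pygb's larger in mutant than in wildtype corneas with every length. No paired analysis was possible because the labels give the genotypes no shared replicate numbers; the numbers 1 to 3 used here only name libraries in deposit order.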
